A study of Mus musculus with 12 samples.

Results

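The genes described here code for enzymes of antioxidant defence, most of them targets of the transcription factor Nrf2, in the lungs of newborn mice with and without cavin-1. The members were named by symbol as Nqo1, Hmox1, Gclc, Gclm, Txnrd1, Srxn1, Gsr, Sod2, Sod3 and Gpx3, and every probe of the array annotated to one of these symbols was taken. This gave 12 probes for 9 of the 10 genes, of 45281 probes and 19057 genes on the array. No probe was listed under Gsr, which codes for glutathione reductase, so Gsr was not analysed here.

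Cavin-1, also called PTRF, is a coat protein of caveolae, the small flask-shaped pits of the cell surface. Lungs of 6 cavin-1-deficient newborn mice (KO) and 6 wild-type newborn mice (WT) were each hybridised to 1 Illumina mouse array. All mice were labelled as C57/bl6, with an age from 0 to 6 h after birth. Per the study's methods, the knockout allele carries a lacZ/neo cassette and the WT mice were littermates, although the labels do not pair KO and WT mice.

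Nrf2 (gene Nfe2l2) is kept low in resting cells by Keap1, which hands it to the Cul3 ubiquitin ligase for breakdown. Oxidants and electrophiles act on Keap1, Nrf2 then builds up, and with a small Maf partner it binds antioxidant response elements near genes of quinone reduction, heme breakdown, glutathione synthesis and thiol reduction. Superoxide dismutases and glutathione peroxidases act beside these enzymes, in mitochondria, cytosol and the fluid outside cells. At birth the lung passes from the low oxygen of fetal life to air, so these genes are of interest in the first hours of breathing.

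The promoters of 3 Nrf2 targets are shown because they hold the core letters of an antioxidant response element, and that of Gpx3 because it had the largest difference between KO and WT among the members. The sequences are from RefSeq, build GRCm38.p6, which listed promoters for 6 of the 10 members. They run 5′ to 3′ on the strand of the gene up to the base before its start. Capitals mark TGACNNNGC or TGAGNNNGC on either strand. The Srxn1 window is chr2:152105274-152105523 (plus strand), that of Txnrd1 chr10:82858956-82859205 (plus strand), that of Gclm chr3:122245307-122245486 (plus strand) and that of Gpx3 chr11:54902604-54902853 (plus strand).
Srxn1: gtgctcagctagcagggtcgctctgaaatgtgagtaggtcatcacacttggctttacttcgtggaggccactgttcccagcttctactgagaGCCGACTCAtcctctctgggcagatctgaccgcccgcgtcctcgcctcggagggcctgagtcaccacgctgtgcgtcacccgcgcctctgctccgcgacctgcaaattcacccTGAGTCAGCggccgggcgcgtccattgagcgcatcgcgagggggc
Txnrd1: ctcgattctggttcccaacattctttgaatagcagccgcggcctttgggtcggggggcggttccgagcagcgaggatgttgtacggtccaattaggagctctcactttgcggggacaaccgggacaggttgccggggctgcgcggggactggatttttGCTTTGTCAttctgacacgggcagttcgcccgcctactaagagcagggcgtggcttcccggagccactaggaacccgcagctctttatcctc
Gclm: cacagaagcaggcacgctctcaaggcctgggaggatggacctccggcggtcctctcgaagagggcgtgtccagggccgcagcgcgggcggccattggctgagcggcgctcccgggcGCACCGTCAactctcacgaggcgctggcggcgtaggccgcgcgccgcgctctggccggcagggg
Gpx3: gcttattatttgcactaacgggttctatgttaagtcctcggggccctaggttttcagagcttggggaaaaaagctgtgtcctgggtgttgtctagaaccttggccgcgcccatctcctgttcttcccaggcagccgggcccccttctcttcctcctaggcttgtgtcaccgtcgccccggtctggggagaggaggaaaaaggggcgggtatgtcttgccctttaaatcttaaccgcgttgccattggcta
Srxn1 held 2 matches, and Gclm and this start site of Txnrd1 held 1 each. The windows of Nqo1, Sod2, Gpx3 and the other start sites of Txnrd1 held no match to these letters. Only 250 bases upstream of a start were searched, and 180 for Gclm, so elements farther away were not looked for. Of 32851 promoter windows of 250 bases, 10.2% held TGACNNNGC, 14.4% held TGAGNNNGC and 23.0% held either, so a match of these short letters was common and is a description of the sequence only.

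The median bead signal of an array was 99.2 to 114.7 in KO and 97.0 to 121.5 in WT before normalisation. The highest medians were those of WT 142, WT 188 and WT 182. Of the probes, 45.3 to 49.1% were detected (detection p under 0.05). Cavin1 itself, measured by 2 probes, was low in 5 KO lungs (1.67 to 2.89 and 3.60 to 5.37 on the log2 scale). In the library labelled KO 157 it stood at 8.47 and 11.66, within the WT ranges of 8.22 to 8.92 and 11.57 to 11.79. Its title and its description also give different mouse numbers, so the member results are given with and without it. All 8 markers of alveolar type 2 cells and all 7 of type 1 cells were detected in the 12 lungs.

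None of the 12 member probes differed between KO and WT at an adjusted p under 0.05 (limma, Benjamini-Hochberg over all probes), against 0.148% of all probes (0.0663% higher and 0.0817% lower in KO). That share was unstable, as leaving out 1 lung gave from 0 called probes (without KO 238 or WT 179) to 580 (without KO 192), against 67 with all lungs. At an unadjusted p under 0.05, 3 member probes were higher in KO (Nqo1, Sod2 and Gpx3) and 1 was lower (Txnrd1). Over all probes 13.4% passed that level, 6.33% with the higher value in KO and 7.05% with the lower. With probes merged to genes, 4 of 9 members passed it (44.4%) against 13.7% of all genes (6.22% higher and 7.44% lower in KO). Among these 4, merged Nqo1 (limma unadjusted p = 0.0420) rested in part on a probe that was not detected in any lung. The median difference of the members was −0.05 on the log2 scale against −0.01 over all genes. Of the 12 probes, 1 had no overlap between the 6 KO and 6 WT values, as did 1.44% of all probes. With the library labelled KO 157 left out, no member probe passed the adjusted threshold (0.0552% of all probes did), and 4 passed the unadjusted one (11.9% of all probes). In merged genes 3 of 9 members then passed the unadjusted level (12% of all genes) and 0 the adjusted one (0.115% of all genes).

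**Figure D1:**
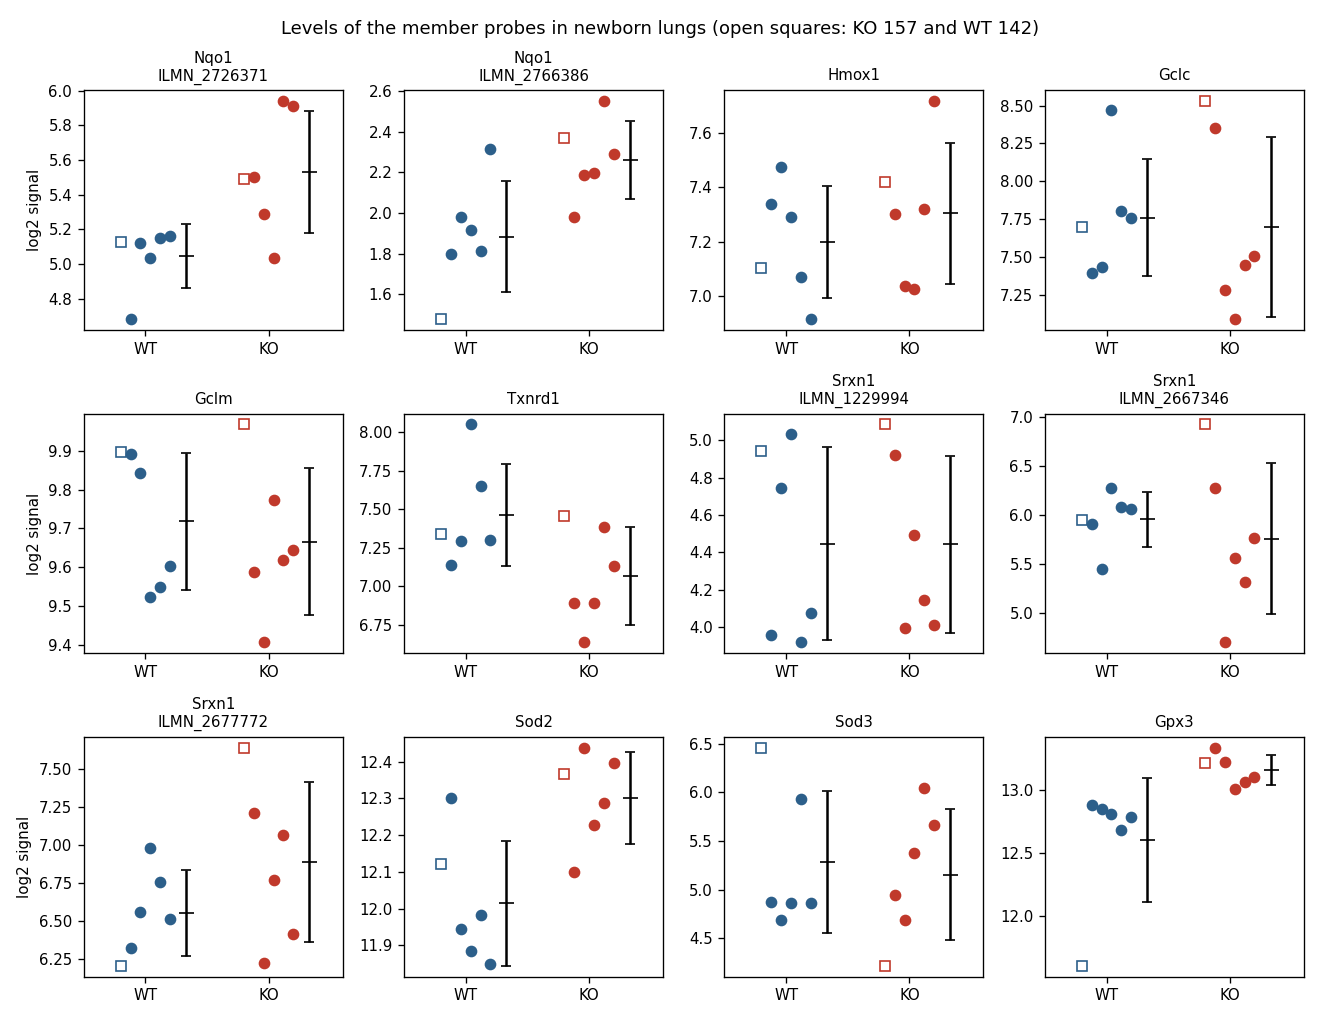
Log2 signal (vertical axes, each with its own range that does not start at 0) of each member probe in 6 KO and 6 WT lungs. Each point is 1 lung, bars give the mean ± SD, and Gpx3 is the probe whose KO and WT points do not overlap.

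Nqo1 codes for a quinone reductase that spares the cell the semiquinones from which superoxide forms, and is a much used readout of Nrf2. Its detected probe (ILMN_2726371) was dim. The bead signals were 121 to 155 in KO and 108 to 155 in WT, so they overlapped before normalisation. The KO lungs lay at 5.03, 5.50 and 5.94 (lowest, median and highest log2 signal), and the WT lungs at 4.68, 5.12 and 5.16. All KO lungs but KO 235 stood above every WT lung, and WT 177 was the lowest of all. The difference was 0.48 (SE 0.21, 95% confidence interval 0.04 to 0.93), a 1.40-fold higher level, with an unadjusted p of 0.0336 and an adjusted p of 0.325 in limma. Leaving out the library labelled KO 157 gave 0.49 (adjusted p = 0.400). The size of this near-background value depended on the background correction, since with none it was 0.14. The second Nqo1 probe (ILMN_2766386) was not above background in any lung, so no fold is given for it.

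Hmox1 codes for heme oxygenase-1, which opens the heme ring to biliverdin, iron and carbon monoxide. It lay at 7.02, 7.31 and 7.72 in KO and at 6.91, 7.20 and 7.47 in WT. The groups overlapped over most of their ranges, and KO 238 was the highest lung. The difference was 0.11 (SE 0.15, interval −0.20 to 0.42, adjusted p = 0.817), and 0.08 without the library labelled KO 157. The interval leaves room for a change of either sign.

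Gclc and Gclm code for the catalytic and the modifier subunit of glutamate-cysteine ligase, the rate-limiting enzyme of glutathione synthesis. Gclc lay at 7.09, 7.48 and 8.53 in KO and at 7.40, 7.73 and 8.47 in WT. Its 3 high lungs came from both genotypes (KO 157, KO 186 and WT 182), and the other 9 lay between 7.09 and 7.81. The difference was −0.06 (SE 0.23, interval −0.54 to 0.42, adjusted p = 0.943). With the library labelled KO 157 left out it was −0.23 (adjusted p = 0.724). Gclm lay at 9.41, 9.63 and 9.97 in KO and at 9.52, 9.72 and 9.90 in WT, with the WT values inside the KO range. Its difference was −0.05 (SE 0.11, interval −0.28 to 0.18, adjusted p = 0.888), and −0.11 without that library. KO 157 was the highest lung for Gclm as for Gclc, while KO 186 and WT 182 lay in the lower part of the Gclm values. The spread of Gclm within genotypes (SD 0.18) was below that of Gclc (0.50).

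Txnrd1 codes for the cytosolic thioredoxin reductase, a selenoprotein that uses NADPH to keep thioredoxin reduced. It lay at 6.64, 7.01 and 7.46 in KO and at 7.14, 7.32 and 8.05 in WT. Of the KO lungs, 4 lay below every WT lung, while KO 157 and KO 237 lay inside the WT range. The difference was −0.40 (SE 0.17, interval −0.76 to −0.03), a ratio of KO to WT of 0.760, with an unadjusted p of 0.0350 and an adjusted p of 0.328. With no background correction it was −0.24. It was −0.47 (SE 0.18, adjusted p = 0.286) with the library labelled KO 157 left out. It was the member with the lowest KO to WT ratio, and the only one of the 4 at an unadjusted p under 0.05 that was lower in KO.

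Srxn1 codes for sulfiredoxin, which reduces over-oxidised peroxiredoxins back to work, and it was measured by 3 probes that did not give 1 direction. The probe ILMN_2667346, whose value is that of the merged gene, lay at 4.69, 5.66 and 6.92 in KO and at 5.45, 6.00 and 6.27 in WT. The KO lungs spanned the whole WT range, from KO 192 at the bottom to KO 157 at the top. Its difference was −0.20 (SE 0.28, interval −0.79 to 0.40, adjusted p = 0.821), and −0.43 (adjusted p = 0.506) once the library labelled KO 157 was left out. The probe ILMN_2677772 lay at 6.23 to 7.64 in KO and 6.21 to 6.98 in WT, with a difference of 0.33 (interval −0.12 to 0.78, adjusted p = 0.533), which was 0.18 with the library labelled KO 157 left out and 0.19 with no background correction. The probe ILMN_1229994, near background, gave a difference close to 0 with an interval of −0.63 to 0.62.

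Sod2 codes for the manganese superoxide dismutase of mitochondria. Its bead signals were 4136 to 4959 in KO and 3884 to 5792 in WT, so they overlapped before normalisation. On the normalised log2 scale it lay at 12.10, 12.33 and 12.44 in KO and at 11.85, 11.96 and 12.30 in WT. Of the WT lungs, WT 177 and WT 142 lay inside the KO range, and the other 4 lay below every KO lung. The difference was 0.29 (SE 0.09, interval 0.10 to 0.47), 1.22-fold higher in KO, with an unadjusted p of 0.00425 and an adjusted p of 0.158. Leaving out the library labelled KO 157 gave 0.28 (adjusted p = 0.233). The within-genotype SD of 0.15 was the smallest of the members. Sod2 is also expressed by neutrophils, and the 10 neutrophil markers had a mean level of 8.35 to 9.01 in KO and 7.87 to 8.67 in WT. Of these 10, 5 were higher in KO and 0 lower at an unadjusted p under 0.05 in limma, with 0 called after adjustment. Of all genes, 6.22% were higher and 7.44% lower in KO at that unadjusted level. Larger median differences between the groups stood in the markers of skeletal muscle (2.08, 4 of 7 higher at the unadjusted level) and liver (0.90, 4 of 8 higher). Of 9 endothelial markers, 5 were higher (median 0.32). The medians of smooth muscle (−0.32, 1 of 10 lower at the unadjusted level), fibroblast (−0.19, 1 of 8 lower) and erythroid markers (−0.10, 3 of 8 lower) were negative. In each of these lists 0 were called. The mean level ran from 6.14 to 10.8 in KO and from 5.64 to 11.4 in WT for skeletal muscle, from 4.53 to 8.03 and from 4.66 to 5.92 for liver, and from 9.48 to 9.86 and from 9.45 to 9.65 for endothelium. The part of these cell types in the member results was not tested. In whole lung, a change in the number of cells of a type and a change in RNA per cell cannot be told apart.

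Sod3 and Gpx3 code for secreted enzymes. Sod3 is the extracellular superoxide dismutase, held to the matrix of vessels and airways, and Gpx3 is the plasma glutathione peroxidase, a selenoprotein known above all from kidney. Sod3 was dim, at 4.22, 5.16 and 6.04 in KO and at 4.69, 4.87 and 6.46 in WT. The high lungs were WT 142, KO 237 and WT 187, and the lowest was KO 157. The difference was −0.13 (SE 0.34, interval −0.84 to 0.59, adjusted p = 0.914), and it turned to 0.06 (adjusted p = 0.968) once the library labelled KO 157 was left out. The 10 smooth muscle markers had a mean level of 6.09 to 7.03 in KO and 6.71 to 7.44 in WT, with KO 157 the lowest there too. The fibroblast markers, at 8.74 to 9.31 in KO and 8.76 to 9.52 in WT, were also lowest in KO 157. For deviations from the genotype means, Pearson's r of Sod3 was 0.77 with smooth muscle, 0.73 with fibroblast and 0.70 with macrophage markers. It was 0.05 to 0.57 with the other marker lists. The part of these cell types in the Sod3 values was not tested.

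Gpx3 had bead signals of 7279 to 11871 in KO and 4055 to 8686 in WT. On the normalised log2 scale it lay at 13.01, 13.16 and 13.34 in KO and at 11.60, 12.80 and 12.88 in WT. All 6 KO lungs stood above all 6 WT lungs (0.629% of all probes did so), while the bead signals before normalisation overlapped. The difference was 0.56 (SE 0.16, interval 0.22 to 0.89), 1.47-fold higher in KO, with an unadjusted p of 0.00251 and an adjusted p of 0.127. With the library labelled KO 157 left out it was 0.55 (adjusted p = 0.195). Part of the size came from WT 142 at 11.60. Without that lung the difference was 0.36, with an adjusted p of 0.0709 in the fit of 1 value a gene. WT 142 also had the highest erythroid marker level of all 12 lungs (10.89). Among the WT lungs it had the highest macrophage (8.45), neutrophil (8.67), mesothelial (9.19) and alveolar type 1 (10.57) levels. The same held for its endothelial (9.65), alveolar type 2 (13.13) and adipocyte (3.83) levels. The part of these cell types in its Gpx3 value was not tested. Of the 6 markers of kidney tubule cells, 4 were detected in none of the 12 lungs and 1 in all 12. Their part in the Gpx3 values was not tested.

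**Figure D2:**
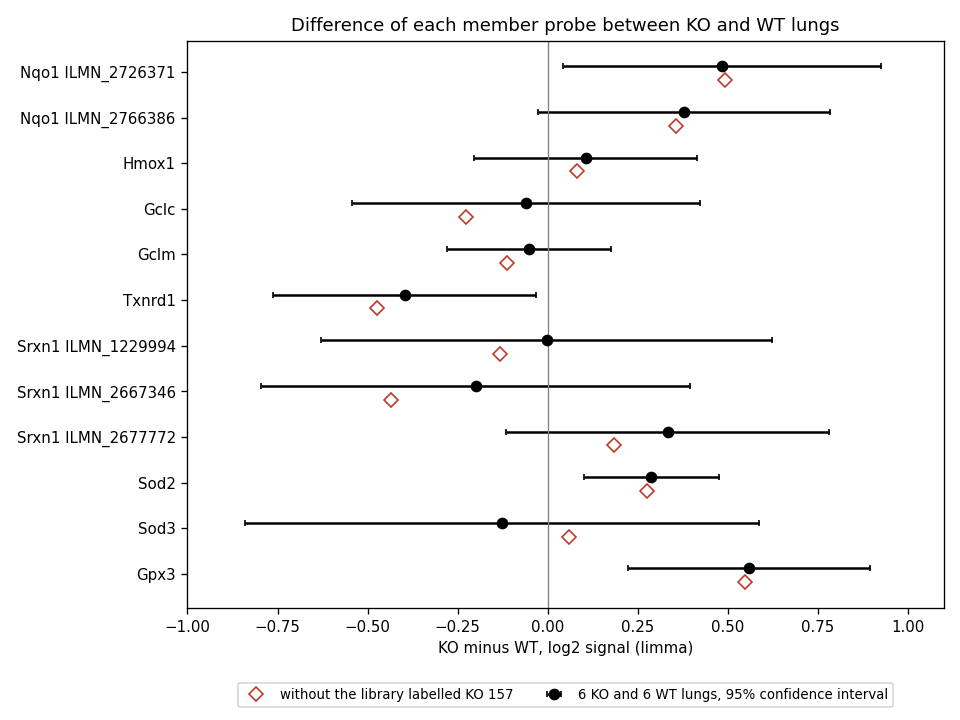
Difference KO minus WT in log2 signal for each member probe, with the limma 95% confidence interval (black) and the estimate without the library labelled KO 157 (open diamonds). The intervals of Nqo1 ILMN_2726371, Txnrd1, Sod2 and Gpx3 lie on 1 side of 0, and Nqo1 ILMN_2766386 was not detected in any lung.

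The members varied among lungs of 1 genotype by unequal amounts. The SD of the deviations from the genotype mean was 0.70 for Sod3, 0.58 for Srxn1 and 0.50 for Gclc, against 0.36 for Gpx3, 0.32 for Txnrd1, 0.23 for Hmox1 and 0.21 for Nqo1. Over the 36 pairs of members the correlations of these deviations had a median r of 0.08, and 3 had an unadjusted permutation p under 0.05 (100000 permutations within genotypes, two-sided). No r passed 0.05 after adjustment over the 36 pairs. Gclc and Srxn1 had the highest, with Pearson's r = 0.82 (permutation p = 0.00251, adjusted p = 0.058) and Spearman's rho = 0.91 (permutation p = 0.00048, adjusted p = 0.0173) over 12 lungs. KO 157, KO 186 and WT 182 were high in both genes and KO 192 was low in both. Without the 2 lungs farthest from the median of Gclc, r was 0.73. With the library labelled KO 157 left out, r was 0.72 (permutation p = 0.0268, adjusted p = 0.483) and rho 0.77. Each of the 3 Srxn1 probes gave an r with Gclc of 0.65 to 0.82.

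Sod3 and Gpx3 ran opposite ways, with r = −0.71 (permutation p = 0.00322, adjusted p = 0.058) and rho = −0.57 (adjusted permutation p = 0.324) over the 12 lungs. WT 142 had the highest Sod3 and the lowest Gpx3. Without WT 142, r was −0.70, and leaving out each other lung in turn gave −0.79 to −0.69. Gclc and Txnrd1 had r = 0.62 (permutation p = 0.0400, adjusted p = 0.480), which fell to 0.17 without the 2 lungs farthest from the median of Gclc. For the other pairs the unadjusted permutation p of r was 0.05 or more.

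**Figure D3:**
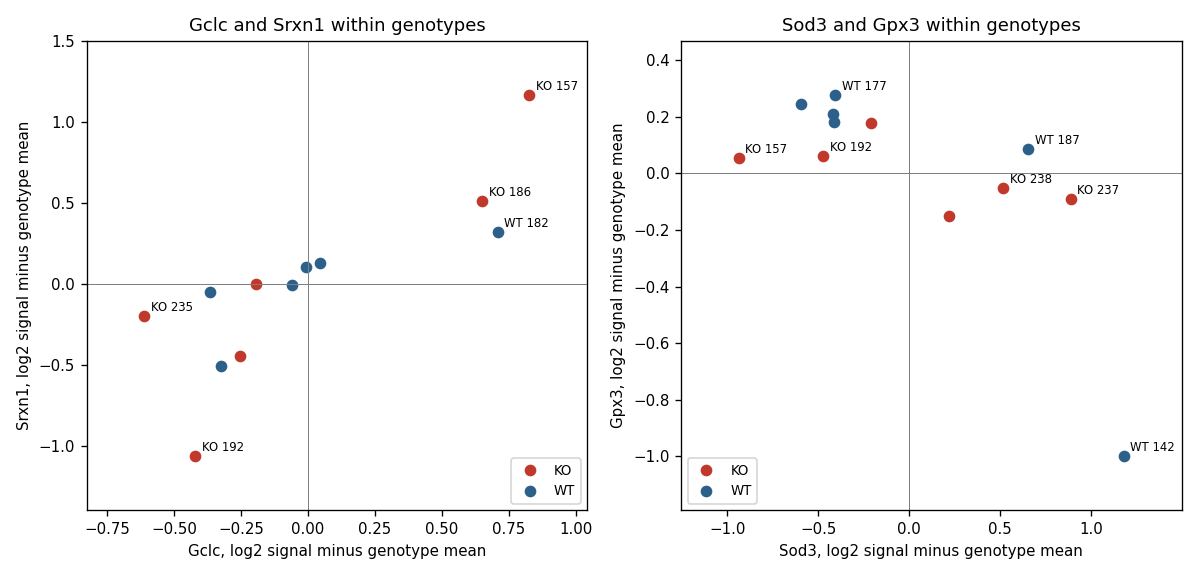
Deviations from the genotype mean in log2 signal for Gclc against Srxn1 and for Sod3 against Gpx3, 1 point for each of 12 lungs, with the outlying lungs named. KO 157 is highest in both genes of the first relation, KO 235 lowest in Gclc and KO 192 lowest in Srxn1, and WT 142 marks the end of the second.

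The genes whose deviations were most like those of the most variable members were sought among 10153 genes detected in all 12 lungs, and they are a description over 12 lungs, chosen as the highest values. For Sod3 these were Thbs2 (r = 0.96), C1qtnf3 (r = 0.94) and Clec3b (r = 0.93). Thbs2 codes for the matrix protein thrombospondin-2 and Clec3b for tetranectin. For Srxn1 they were Tigd2 (r = 0.96), Epop (r = 0.95) and Selenop (r = 0.93), the last the plasma selenium carrier selenoprotein P. For Gclc they were Zfp800 (r = 0.95), Chst15 (r = 0.92) and Uhrf1bp1l (r = 0.90). Leaving out the library labelled KO 157, the 9 values were 0.84 to 0.96.

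None of the 115 measured genes of 5 further lists of the pathway was called at an adjusted p under 0.05 in merged genes, against 0.199% of all genes (0.0945% higher and 0.105% lower in KO). Among 12 regulators of Nrf2, 0 passed an unadjusted p under 0.05 in either direction, with a median difference of 0.08. By single probes 5 of their 23 passed it (13.4% of all probes did) and 0 were called. The 2 with the smallest p were Cul3, the ligase scaffold that takes Nrf2 to breakdown (difference −0.15, adjusted p = 0.467), and Nfe2l1, a relative of Nrf2 (0.15, adjusted p = 0.508). The 2 Cul3 probes differed, with 0.019 (adjusted p = 0.948) for ILMN_1224546 and −0.32 (unadjusted p = 0.0147, adjusted p = 0.244) for ILMN_2487814. With the library labelled KO 157 left out, the merged values were −0.14 for Cul3 and 0.08 for Nfe2l1. Nfe2l2 itself had a difference of −0.18 (SE 0.19, adjusted p = 0.732) and Keap1 one of 0.08 (SE 0.13, adjusted p = 0.849).

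Of 38 measured other targets of Nrf2, 6 were higher and 3 were lower in KO at an unadjusted p under 0.05 (23.7%, against 13.7% of all genes), with a median difference of 0.04. Gsta4, a glutathione S-transferase that acts on the lipid aldehyde hydroxynonenal, had a difference of 0.46 (SE 0.12, adjusted p = 0.0985). Slc48a1, a heme transporter, differed by 0.41 (SE 0.13, adjusted p = 0.159). These values were 0.45 and 0.36 with the library labelled KO 157 left out. At the unadjusted level 5 genes of the list were then higher and 4 lower (12% of all genes passed it).

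Of 40 measured enzymes of the glutathione, thioredoxin and peroxide systems, 3 were higher and 5 lower at the unadjusted level (20%). Over all genes 13.7% passed it, 6.22% higher and 7.44% lower in KO. In the list, 2 genes had no overlap between the groups, against 1.48% of all genes. Txnip, which binds and inhibits thioredoxin, lay at 13.19 to 13.68 in KO and at 12.88 to 13.18 in WT. Each KO lung stood above every WT lung (as for 0.54% of all genes), with a merged difference of 0.37 (SE 0.09, adjusted p = 0.0836). By single probes, ILMN_3112873 rose in KO by 0.52 (SE 0.09, adjusted p = 0.0318), from 12.31 to 12.62 in WT to 12.70 to 13.20 in KO. It was the 1 probe called of all those in these lists. Leaving out the library labelled KO 157 ended the call (0.47, adjusted p = 0.0523), and the other Txnip probe (ILMN_1213609) gave 0.23 (adjusted p = 0.260). Glrx2, the mitochondrial glutaredoxin, lay at 7.50 to 7.81 in KO and at 7.95 to 8.15 in WT, so each KO lung was below every WT lung. Its merged difference was −0.40 (SE 0.09, adjusted p = 0.0836), which is that of its probe ILMN_3096267, while the probe ILMN_1214664 gave −0.02 (adjusted p = 0.963). Its other probe, ILMN_3023749, was detected in only 3 KO lungs and 1 WT lung and had the opposite sign (0.43, adjusted p = 0.689). With only detected probes kept, the merged difference was −0.21. Leaving out the library labelled KO 157 gave 0.32 for Txnip (adjusted p = 0.135) and −0.41 for Glrx2 (adjusted p = 0.132). At the unadjusted level 2 genes of the list were then higher and 5 lower (12% of all genes passed it).

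Of 14 measured genes that produce superoxide, 0 passed the unadjusted level in merged genes, with a median difference of 0.02. By single probes 1 of their 18 passed it (13.4% of all probes did) and 0 were called. It was the Xdh probe ILMN_1239055 (limma unadjusted p = 0.0385, adjusted p = 0.338). Xdh, the xanthine dehydrogenase, had the smallest p of those detected (difference 0.44, SE 0.21, adjusted p = 0.378). It was 0.25 without WT 142 and 0.37 with the library labelled KO 157 left out. Cybb, the oxidase subunit of phagocytes that came next, was at or near background in all lungs and gives no fold. Of 11 genes of selenoprotein synthesis and selenium transport, 0 were higher and 2 lower at the unadjusted level (18.2%, against 13.7% of all genes). The list had 3 positive and 8 negative differences and a median of −0.15. The 2 were Sephs1, a selenophosphate synthetase homologue (−0.40, SE 0.12, adjusted p = 0.138), and Sepsecs, which makes the selenocysteine carried by its transfer RNA (−0.55, SE 0.22, adjusted p = 0.286). With no background correction Sepsecs was −0.18. Sephs1 and Sepsecs were −0.40 and −0.60 with the library labelled KO 157 left out. Lrp2, an uptake receptor of selenoprotein P in kidney that lay near background here, then also passed the unadjusted level, with the higher value in KO. Of all genes, 12% passed that level without this library.

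**Figure D4:**
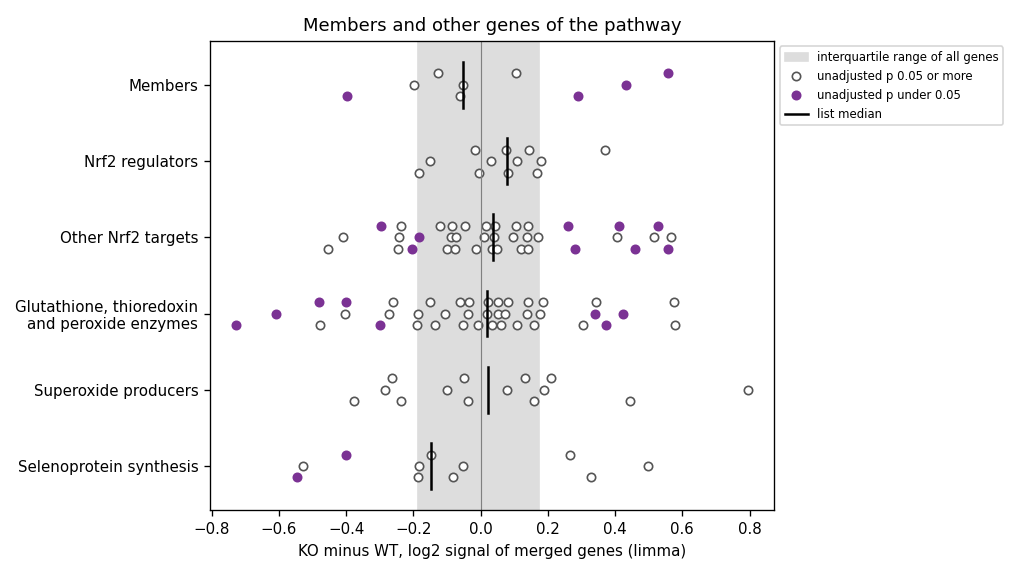
Difference KO minus WT in log2 signal of merged genes, 1 point a gene, for the 9 measured members and 5 lists of the pathway. Filled points have an unadjusted p under 0.05, the vertical bars are list medians (−0.15 to 0.08), and the grey band is the interquartile range of all genes.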

How the data were processed

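Total RNA from newborn lung, 1 mouse an array, was read on Illumina mouse bead arrays in GenomeStudio. The deposited intensity values are non-normalized bead signals, each with a detection p-value deposited by the authors beside it. The authors' processed intensity table, with values down to −17.5, served as an alternative. Columns of per-sample values left unused numbered 0. Probe symbols came from the platform annotation (34885 probes with 1 gene, 18 with several, 10378 with none).

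Bead signals were corrected for background with the RMA convolution model, quantile normalised and log2 transformed (R 4.3.3, limma 3.58.1), as the study's methods describe. KO and WT were compared probe by probe, and gene by gene after taking the median of the probes of a gene, with limma's moderated test with a mean-variance trend and Benjamini-Hochberg adjustment over all probes or genes. The scripts were tested on simulated data. A probe counted as detected at a detection p under 0.05. The array a lung shared with others is not given in the labels, so no batch could be examined. Levels were compared between lungs within a probe, and a probe's brightness was used only to choose the probe in 1 alternative. With 6 lungs a group, precision is limited by the number of arrays. The age is that of the labels, and the methods state a wider window.

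Named genes were all members and their probes, the called genes or else the 2 of smallest unadjusted p in each list, and the 3 genes most alike in deviations to each of the 3 most variable members. Nfe2l2, Keap1, Lrp2, the Txnip, Cul3 and Glrx2 probes and the genes under other observations were added after their values were seen. The members and lists were chosen with earlier results of these data known. The labels do not say that the mice were of separate litters. Alternatives were other background corrections, normalisations, filters, probe merging and tests, the level of Y-linked genes as a covariate, and leaving out each lung.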

Additional observations from a re-analysis of the deposited data

Results flagged for a closer look

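Of 30 groups of 6 lungs examined (15 genes or probes, KO and WT apart), 3 held a lung that stood far from the other 5, and chance alone flags about 1 in 20 groups. Gpx3 in WT 142 was 11.60, with the next lung at 12.69. Cavin1 as a merged gene in the library labelled KO 157 was 10.07, with the next KO lung at 4.13. The detected Nqo1 probe (ILMN_2726371) in WT 177 was 4.68, with the next WT lung at 5.03.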

How the results depend on the processing

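No member passed an adjusted p under 0.05 in any of the 216 values from 24 alternatives. The lowest adjusted p was 0.0709 for Gpx3, 0.0866 for Sod2, 0.166 for Nqo1 and 0.220 for Txnrd1, and these 4 kept their sign throughout. The deleted gene Cavin1 was itself not called in 13 of the 24 alternatives, so those say little on the members. SAM at q = 0 was among them (Cavin1 q = 0.0485), as were the authors' values in limma (adjusted p = 0.0808) and the t-test (adjusted p = 0.105). Without KO 238, WT 179, WT 182 or WT 187, limma called 0 genes of the whole array at an adjusted p under 0.05. The methods' t-test had 3 of 9 members at an unadjusted p under 0.05 and 0 after Benjamini-Hochberg (2461 and 0 of all genes). Gpx3 overlapped between KO and WT when arrays were scaled to a common median (lowest KO 12.79, highest WT 13.05). The cause was not tested for any change below. Signs turned for Srxn1 with probes filtered at a detection p under 0.01 (0.067) or with its brightest probe (0.33), for Cul3 with its brightest probe (0.019), for Sod3 with array weights (0.0070), for ILMN_1229994 with array weights (0.0049) or the Y-linked covariate (0.072), and for Cybb in the authors' values (0.0088). Leaving out each lung gave −0.30 to 0.11 for Sod3, −0.23 to 0.081 for Gclc, −0.43 to 0.012 for Srxn1 and its probe ILMN_2667346, and −0.13 to 0.12 for ILMN_1229994. The glutathione, thioredoxin and peroxide list gained 1 called gene, Glrx2, in the authors' values (adjusted p = 0.0455) and without KO 192 (0.0459), so its count ranged from 0 to 1 over the lungs left out. The call of ILMN_3112873 (Txnip) was lost with median scaling (adjusted p = 0.116), in the authors' values (0.0766), without a trend (0.186), with the t-test (0.0888) and in SAM (q = 0.187), and without KO 157 (0.0523), KO 238 (0.0736), WT 177 (0.0873), WT 179 (0.0608), WT 182 (0.0672) or WT 188 (0.0717). Dim probes (Nqo1, Sod3, ILMN_1229994) lay near background, which limits their precision. No paired analysis was possible because KO and WT mice share no numbers in the labels.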

Other observations

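Some further genes of the lists were picked after their values were seen, and none passed the adjusted threshold in limma. Fth1, the ferritin heavy chain that stores iron, is a merged value of 2 probes. It lay at 14.29 to 14.58 in KO and at 14.60 to 14.72 in WT, without overlap (as for 1.48% of all genes). The difference was −0.20 (SE 0.06, adjusted p = 0.161). Gpx4, the peroxidase that reduces lipid peroxides in membranes, had a difference of 0.34 (SE 0.10, adjusted p = 0.142). Msrb3, a methionine sulfoxide reductase, was dim, at 4.21 to 5.27 in KO and at 5.02 to 5.65 in WT. It differed by −0.73 (SE 0.21, adjusted p = 0.138), and its size under other background corrections was not examined. The differences of Fth1, Gpx4 and Msrb3 were −0.21, 0.32 and −0.64 with the library labelled KO 157 left out.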
